A study of Homo sapiens with 8 samples.

Results

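METTL4 and the core genes of N6-methyladenosine (m6A) RNA methylation were described in a breast cancer cell line exposed to COH29, an inhibitor of ribonucleotide reductase. The set named 10 genes: METTL4, METTL3, METTL14, METTL16, WTAP, FTO, ALKBH5, YTHDF1, YTHDF2 and YTHDF3. Of these, 9 had a probe set paired with a single gene, among 18417 such genes in all, and YTHDF2 was not analysed here. WTAP alone among the members had more than 1 such probe set, and the one that was brightest on average was kept. METTL4 was selected on its log2 change with COH29, which was among the largest falls of all genes, so its drug effect is given as a description with no test. The other members belong to the set by their known function, but they were chosen with earlier results of these data known.

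The arrays covered 4 groups of 2. HCC1937 is a breast cancer line labelled BRCA1 deficient, and HCC1937+BRCA1 is its counterpart labelled as carrying wild-type BRCA1. Each line was measured after 24 h of 10 µM COH29 and as a control, for which the labels name no vehicle and no culture time. The treatment protocol text of the control samples also names COH29, and only their treatment label and titles set them apart as controls. All cells were grown in RPMI medium with fetal bovine serum. How BRCA1 was put into HCC1937+BRCA1, whether that line is a single clone, and whether arrays of a group stem from separate cultures are not stated in the labels. The p-values therefore measure the spread between these arrays, which may be technical.

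Methylation of adenosine at its N6 position is the most frequent internal mark of messenger RNA. METTL3 is the catalytic subunit of the nuclear writer complex, METTL14 its partner that holds the RNA, and WTAP the adaptor that places both in nuclear speckles. FTO and ALKBH5 are dioxygenases that take the methyl group off, and the YTHDF proteins are cytoplasmic readers that steer marked transcripts, among other fates, to decay. METTL4 belongs to the same MT-A70 family as METTL3 and METTL14, but it is known to act on U2 small nuclear RNA, and a role in DNA adenine methylation has been proposed and disputed. METTL16 methylates U6 small nuclear RNA and hairpins of the MAT2A transcript, which encodes the enzyme that makes the methyl donor S-adenosylmethionine.

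The promoter of METTL4 is shown because the gene had the largest fall of the set and because it lies head to head with NDC80, a kinetochore gene that fell as well. RefSeq (GRCh38.p14) gives 300 bases around the METTL4 start site, at chr18:2571456-2571755, minus strand. The sequence runs 5′ to 3′, and capitals mark the motif matches, searched on both strands.
METTL4 promoter: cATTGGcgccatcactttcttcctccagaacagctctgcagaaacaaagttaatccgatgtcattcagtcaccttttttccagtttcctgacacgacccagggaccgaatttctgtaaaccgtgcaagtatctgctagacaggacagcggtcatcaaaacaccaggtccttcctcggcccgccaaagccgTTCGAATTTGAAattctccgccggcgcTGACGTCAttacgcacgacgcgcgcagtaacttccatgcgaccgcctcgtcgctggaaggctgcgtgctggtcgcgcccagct
Positions are counted from the start site, with negative values before it. The cell cycle genes homology region (CHR), TTTGAA, an element known from promoters of mitotic genes, begins at -54. Next to it, at -60, begins a variant form of the CHR, spelled TTCGAA. The cyclic AMP response element (CRE), TGACGTCA, a palindrome bound by CREB and ATF proteins, begins at -33. A CCAAT box, read on the other strand as ATTGG, begins at -249. Among 35116 promoter windows of the same length, 15.2% held the CHR, 1.45% its variant, 1.85% the CRE and 34.6% a CCAAT box, on either strand. Also searched was TGATGNAA, an element known for the stress factor ATF4, which was in 3.62% of all windows and not in that of METTL4. The NDC80 start site lies 52 bases from that of METTL4 on the opposite strand. The promoter windows of both genes share 151 bases, and the CHR, its variant and the CRE lie in the shared stretch. The CHR and the CRE had no match in the windows searched for the other members, and the variant had 1, in METTL16. YTHDF3 had no window in this search. A match is a description of the letters and not a bound site.

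All values below are log2 intensities as deposited, and a change is a difference of log2 intensities, so a value of 1 stands for a doubling. Arrays of the same group correlated over genes with r between 0.996 and 0.997, and arrays of different groups with r between 0.955 and 0.987. BRCA1 gave 10.45 and 10.64 in HCC1937 control and 10.50 and 10.43 in HCC1937+BRCA1 control, and the difference of 0.08 ± 0.10 (SE) did not pass the test (limma adjusted p = 0.62). The probe set therefore does not check the line labels. Of 5 epithelial markers, EPCAM, CDH1, KRT8 and KRT18 lay at percentile 97.5 or higher of all genes on every array and KRT19 at 46.0 to 60.3. Of 3 leukocyte markers, PTPRC lay at 1.48 to 4.39, CD3E at 8.63 to 16.2 and CD68 at 86.9 to 91.3. Arrays limit the precision by their number, and the median standard error of a change between groups was 0.103.

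METTL4 was far lower with COH29 in both lines. It measured 8.32 and 8.50 in HCC1937 with COH29, against 10.69 and 10.69 in HCC1937 control. In HCC1937+BRCA1 it measured 7.80 and 7.70 with COH29, against 10.36 and 10.29 in control. All 4 treated arrays lay below all 4 control arrays. The change was -2.28 ± 0.09 (SE, n = 2 arrays per group) in HCC1937, which leaves 20.6% of the control intensity, and -2.58 ± 0.09 in HCC1937+BRCA1, which leaves 16.8%. METTL4 ranked 1st from the lowest among 18417 genes in HCC1937, with RBBP6 next at -2.26. In HCC1937+BRCA1 it ranked 4th, between H2BC3 at -2.59 and HAS2 at -2.47. These values chose the gene and are no test of it.

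METTL4 was not selected on the comparison of the lines without drug, although that comparison shares the control arrays of the drug effects. There it was higher in HCC1937 than in HCC1937+BRCA1 by 0.36 ± 0.09 (adjusted p = 0.0139), and the arrays of the lines did not overlap. In this comparison 31.2% of all genes passed the test, 14.8% higher and 16.4% lower, and of the 9 measured members METTL4 was higher and WTAP lower. The call was lost on leaving out HCC1937 control replicate 1 (adjusted p = 0.0724) or 2 (0.0695) or HCC1937+BRCA1 control replicate 2 (0.0783), while the difference stayed between 0.33 and 0.40 over all alternatives. The drug effect in HCC1937 minus that in HCC1937+BRCA1 was 0.30 ± 0.13, which is given with no test since both drug effects selected the gene. The order of the group levels was HCC1937 control, HCC1937+BRCA1 control, HCC1937 with COH29 and HCC1937+BRCA1 with COH29, from high to low, and no neighbouring groups in this order overlapped. The gap between control and treated arrays selected the gene, so this order is no test. With 2 arrays per group, groups can also lie apart by chance.

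**Figure D1:**
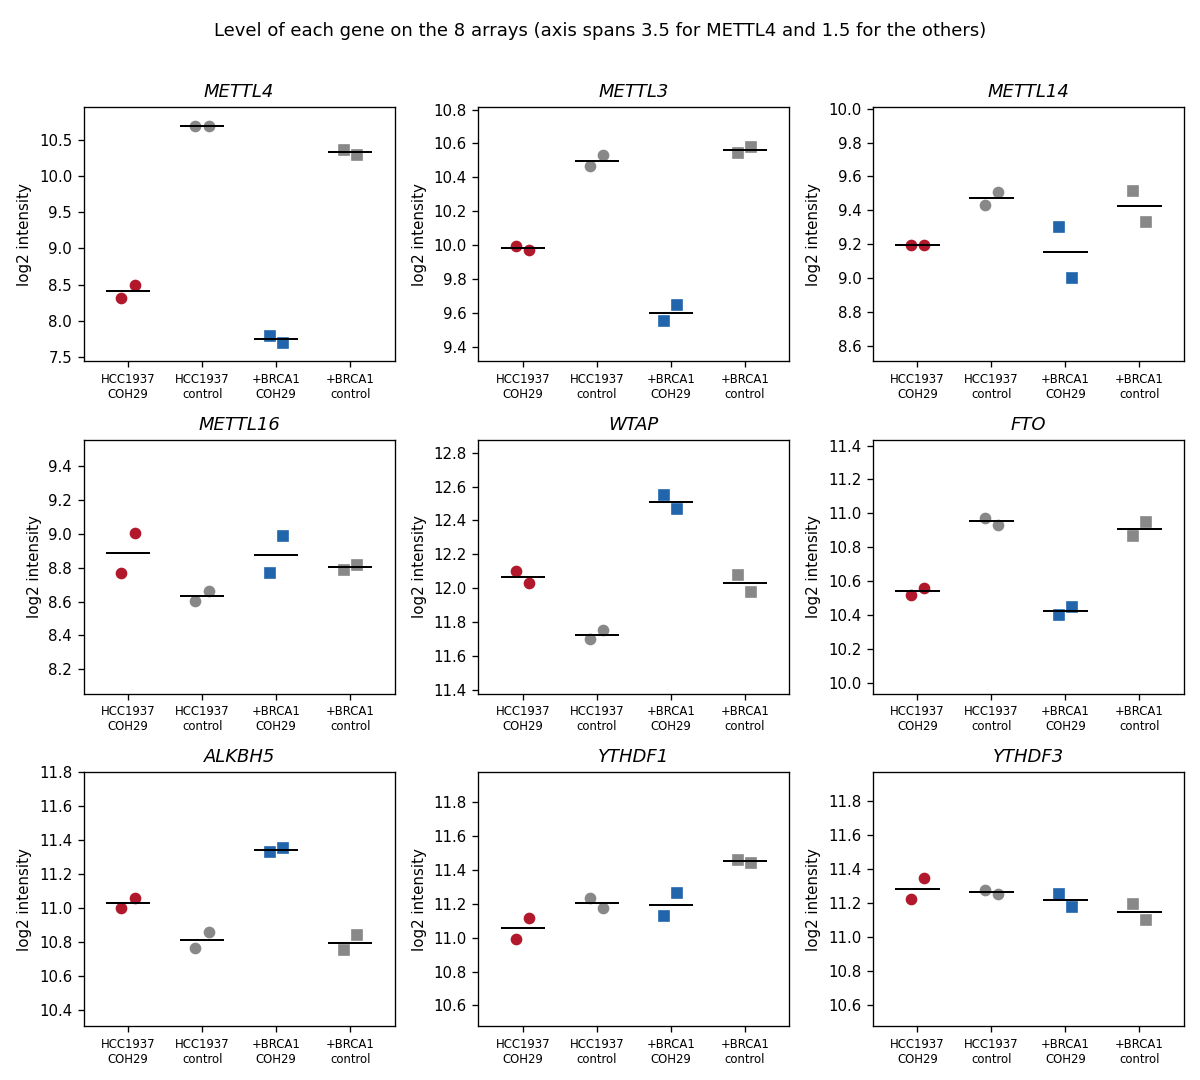
Log2 intensity (vertical axis) of the 9 measured genes on each of the 8 arrays, by group (horizontal axis, with +BRCA1 for HCC1937+BRCA1); points are arrays and bars group means of 2 arrays. METTL4 lies between 7.70 and 8.50 on the COH29 arrays, against 10.29 to 10.69 on the control arrays, while the other genes span far less.

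METTL3, the catalytic writer, fell in both lines. It measured 9.99 and 9.97 in HCC1937 with COH29, against 10.47 and 10.53 in HCC1937 control, a change of -0.52 ± 0.08 (adjusted p = 0.002). HCC1937+BRCA1 cells gave 9.55 and 9.64 with COH29, against 10.54 and 10.58 in control, a change of -0.96 ± 0.08 (adjusted p = 4.46e-05). Treated and control arrays did not overlap in either line, and 51.2% of the control intensity remained in HCC1937+BRCA1. The effect in HCC1937 minus that in HCC1937+BRCA1 was 0.45 ± 0.11, with an adjusted p of 0.13 over all genes. It was 0.021 when the variance prior was allowed to follow the level and outlying variances (eBayes with trend and robust). Without drug the lines differed by -0.06 ± 0.08 (adjusted p = 0.65), with an interval from -0.25 to 0.12.

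METTL14, the RNA-holding partner of METTL3, had lower means with COH29 in both lines, but neither change passed the test. It measured 9.19 and 9.20 in HCC1937 with COH29, against 9.43 and 9.51 in HCC1937 control, and the change was -0.27 ± 0.11 (adjusted p = 0.123). In HCC1937+BRCA1 the values were 9.30 and 9.001 with COH29, against 9.52 and 9.33 in control, and the change was -0.27 ± 0.11 (adjusted p = 0.0992). The spread between the HCC1937+BRCA1 arrays was wide beside that of HCC1937. In HCC1937+BRCA1 the change passed with trend and robust moderation (adjusted p = 0.0454), with the crossed replicate block added after seeing the data (0.0499) and without COH29 replicate 1 (-0.42, 0.0302).

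WTAP, the adaptor of the complex, moved the other way. It measured 12.10 and 12.03 in HCC1937 with COH29, against 11.70 and 11.75 in HCC1937 control, and rose by 0.34 ± 0.08 (adjusted p = 0.0186). The HCC1937+BRCA1 arrays read 12.55 and 12.47 with COH29, against 12.08 and 11.98 in control, a rise of 0.48 ± 0.08 (adjusted p = 0.00226). The second WTAP probe set changed by 0.34 in HCC1937 and 0.59 in HCC1937+BRCA1. WTAP was also lower in HCC1937 than in HCC1937+BRCA1 without drug, by -0.30 ± 0.08 (adjusted p = 0.0232). The HCC1937 drug call ended without HCC1937 COH29 replicate 1 (adjusted p = 0.0921) or control replicate 1 (0.11) or 2 (0.0757). The line call ended without HCC1937 control replicate 1 (0.128) or 2 (0.0793) or HCC1937+BRCA1 control replicate 1 (0.138).

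METTL16, the separate methyltransferase of U6 RNA and MAT2A hairpins, did not pass the test. It measured 8.77 and 9.01 in HCC1937 with COH29, against 8.60 and 8.66 in HCC1937 control (0.26 ± 0.11, adjusted p = 0.129). In HCC1937+BRCA1 the values were 8.77 and 8.99 with COH29, against 8.79 and 8.82 in control (0.08 ± 0.11, adjusted p = 0.613), and these groups overlapped. The intervals of the change ran from 0.0105 to 0.50 in HCC1937 and from -0.17 to 0.32 in HCC1937+BRCA1.

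The erasers moved in opposite directions. FTO measured 10.52 and 10.56 in HCC1937 with COH29, against 10.97 and 10.93 in HCC1937 control, and fell by 0.41 on the log2 scale (SE 0.08, adjusted p = 0.00632). In HCC1937+BRCA1 it measured 10.40 and 10.45 with COH29, against 10.87 and 10.95 in control, and fell by 0.49 (SE 0.08, adjusted p = 0.00167). ALKBH5 measured 11.33 and 11.35 in HCC1937+BRCA1 with COH29, against 10.75 and 10.84 in control, and rose by 0.55 ± 0.08 (adjusted p = 0.00106). In HCC1937 its values were 11.001 and 11.06 with COH29, against 10.77 and 10.86 in control, and the change of 0.22 ± 0.08 did not pass the test (adjusted p = 0.0977). With trend and robust moderation it did (adjusted p = 0.021). The difference between these ALKBH5 effects, -0.33 ± 0.12, had an adjusted p of 0.279. Neither eraser differed between the lines without drug (FTO 0.05 ± 0.08, adjusted p = 0.75, and ALKBH5 0.02 ± 0.08, adjusted p = 0.915) beyond the error, with intervals within -0.17 to 0.23. Leaving out HCC1937 control replicate 1 ended the FTO call in HCC1937 (adjusted p = 0.0514).

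Neither of the measured YTHDF readers passed the test with COH29. YTHDF1 measured 10.99 and 11.11 in HCC1937 with COH29, against 11.23 and 11.18 in HCC1937 control (-0.15 ± 0.09, adjusted p = 0.262). HCC1937+BRCA1 cells gave 11.13 and 11.26 with COH29, against 11.46 and 11.44 in control (-0.26 ± 0.09, adjusted p = 0.0513). That change fell just short of the threshold, and the adjusted p ran from 0.00649 to 0.217 over the alternatives. Without drug, YTHDF1 in HCC1937 minus that in HCC1937+BRCA1 was -0.25 ± 0.09 (limma adjusted p = 0.0636). That difference passed without genes below the 30th percentile of level (0.0341) and with trend and robust moderation (0.00855). YTHDF3 measured 11.22 and 11.35 in HCC1937 with COH29, against 11.28 and 11.25 in HCC1937 control, and 11.25 and 11.18 in HCC1937+BRCA1 with COH29, against 11.19 and 11.10 in control. Its changes were 0.02 ± 0.09 and 0.07 ± 0.09 (adjusted p = 0.899 and 0.561), with intervals within -0.18 to 0.26.

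**Figure D2:**
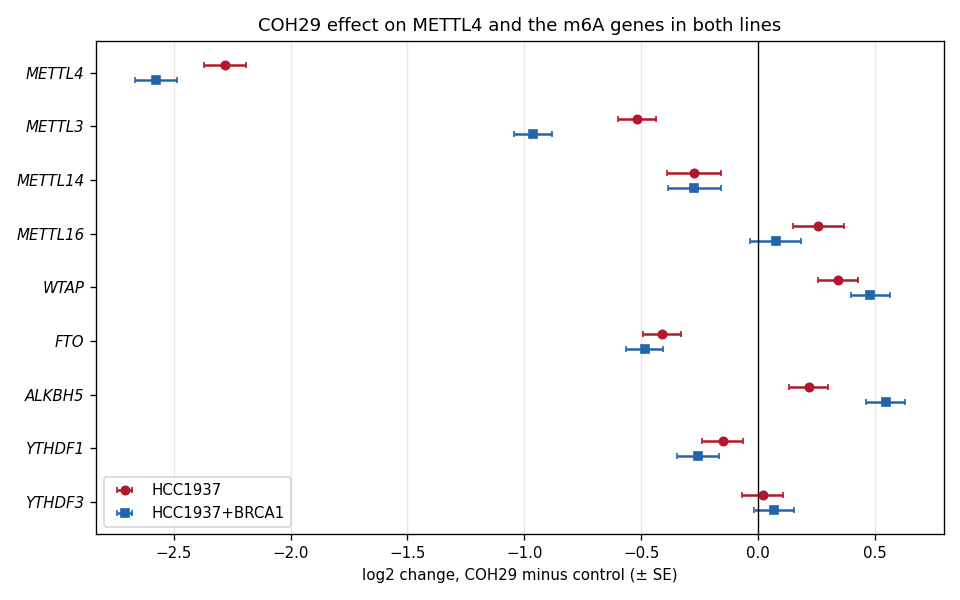
Log2 change with COH29 (horizontal axis, COH29 minus control) of each measured gene in HCC1937 (red circles) and HCC1937+BRCA1 (blue squares); error bars are standard errors of the limma fit, with 2 arrays per group. METTL4 is at -2.28 and -2.58, METTL3 and FTO lie below 0 in both lines and WTAP above 0 in both.

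Of the 8 members other than METTL4, WTAP rose with COH29 in HCC1937 while METTL3 and FTO fell, where 22.7% of all genes passed the test, 10.2% higher and 12.5% lower. The HCC1937+BRCA1 cells had 2 higher (WTAP and ALKBH5) and 2 lower (METTL3 and FTO), where 33.6% of all genes passed, 13.6% higher and 20.1% lower. The medians of the 8 changes were -0.07 and -0.09, beside 0.04 and 0.04 over all genes. With each array shifted to one median, the median over all genes in HCC1937+BRCA1 was 0.11 in place of 0.04. The directions of METTL4, METTL3, WTAP, FTO and ALKBH5 with COH29 were the same under every alternative tried, both scalings included. For the difference of effects between the lines, 0.956% of all genes passed the limma test and 0 of the 8 members other than METTL4 did. METTL3 and ALKBH5 had an unadjusted p under 0.05 in that test. The share of all genes at that looser threshold was not counted, so this cannot be read as an excess. With trend and robust moderation 1 member passed, METTL3, in a fit that called 566 of all genes in place of 176. Without HCC1937 control replicate 1, 1 member in place of 3 passed in HCC1937.

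NDC80, whose start site faces that of METTL4, encodes an outer kinetochore protein. It measured 9.04 and 9.22 in HCC1937 with COH29, against 10.40 and 10.47 in HCC1937 control, and the change was -1.30 ± 0.16 (adjusted p = 0.000528). The HCC1937+BRCA1 arrays read 8.81 and 8.27 with COH29, against 10.49 and 10.40 in control, and the change was -1.91 ± 0.16 (adjusted p = 3.76e-05). Treated and control arrays were apart in both lines, and both changes were smaller in size than those of METTL4. That comparison between probe sets was not tested, and METTL4 was selected for its large fall. The other neighbours were taken by their order on the chromosome, and their distances from METTL4 were not measured. On the other side of METTL4, the nearest measured gene ADCYAP1 changed by -0.05 ± 0.11 and -0.03 ± 0.11 (adjusted p = 0.789 and 0.827). Its level, 6.17 to 6.45, lay below the median over all probe sets of every array (7.10 to 7.24), which leaves little room to measure a fall. SMCHD1, the next measured gene beyond NDC80 and a chromatin protein of the inactive X chromosome, changed by 0.14 ± 0.09 in HCC1937 (adjusted p = 0.336) and rose by 0.29 ± 0.09 in HCC1937+BRCA1 (adjusted p = 0.0409). EMILIN2, which lies further out, changed by 0.05 ± 0.10 (adjusted p = 0.728) and rose by 0.29 ± 0.10 (adjusted p = 0.0484). Both of these calls ended under 9 or more of 17 alternatives. YES1 and TYMS, further out on the ADCYAP1 side, had no call with COH29 (adjusted p between 0.0611 and 0.583).

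**Figure D3:**
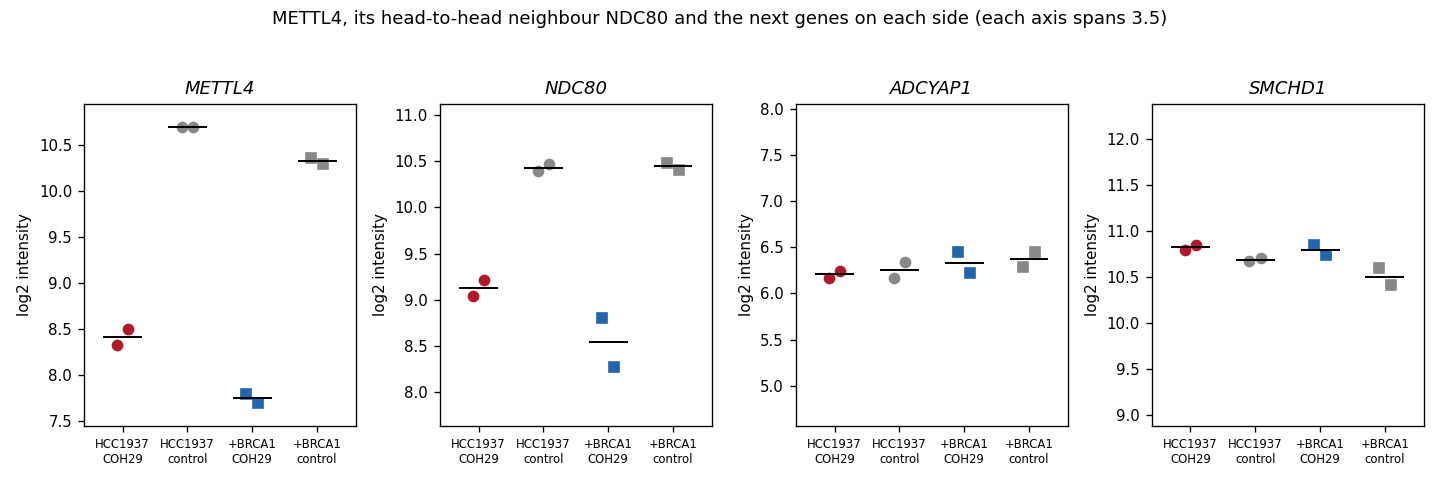
Log2 intensity (vertical axis) of METTL4, NDC80, ADCYAP1 and SMCHD1 on the 8 arrays by group (horizontal axis, with +BRCA1 for HCC1937+BRCA1); points are arrays and bars group means of 2 arrays. METTL4 and NDC80 are low on all 4 COH29 arrays, and the values of ADCYAP1 lie within 6.17 to 6.45 on all 8.

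The genes most like METTL4 over the 8 arrays, among 2614 genes whose group means spanned at least 1, were CENPF (Pearson r = 0.998), ZBTB4 (r = 0.998), TRMT61B (r = 0.996), CDIN1 (r = 0.995) and NCAPH (r = 0.995). The points of each correlation are the same 8 arrays in 4 groups, so they are not independent. CENPF is a centromere protein and NCAPH a condensin subunit, both used in mitosis. ZBTB4 is a zinc finger protein that binds methylated DNA, and TRMT61B is the mitochondrial methyltransferase of tRNA adenosine at N1. Their changes in HCC1937 and HCC1937+BRCA1 were -0.92 and -1.15 for CENPF and -0.88 and -1.12 for ZBTB4. They were -1.03 and -1.12 for TRMT61B, -1.40 and -1.43 for CDIN1, and -0.85 and -0.94 for NCAPH. Each of these was smaller in size than the change of METTL4, which was selected for its large fall, so this is no test. These genes were picked by their correlation with METTL4 on the same arrays, so their falls are no separate result.

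Other genes of the pathway were taken as lists, to be read against all genes, where HCC1937 had 10.2% higher and 12.5% lower, against 13.6% higher and 20.1% lower for HCC1937+BRCA1. Of 5 partners of the writer complex, 2 were higher and 1 lower in either line. RBM15, which brings the complex to its RNA targets, measured 10.76 and 10.93 in HCC1937 with COH29, against 9.91 and 10.12 in control, and rose by 0.83 ± 0.10 (adjusted p = 0.000619). In HCC1937+BRCA1 it measured 10.86 and 10.96 with COH29, against 10.35 and 10.31 in control, and rose by 0.58 ± 0.10 (adjusted p = 0.00232). CBLL1, the ubiquitin ligase HAKAI, rose by 0.34 and 0.31 (adjusted p = 0.0291 and 0.0293). VIRMA, the scaffold that guides methylation toward the ends of transcripts, fell by 0.46 and 0.41 on the log2 scale (adjusted p = 0.00902 and 0.01). RBM15 kept both drug calls whichever single array was left out. CBLL1 lost its call in HCC1937 without any 1 of that line's 4 arrays (adjusted p 0.0853 to 0.147), and in HCC1937+BRCA1 without COH29 replicate 1 (0.155) or control replicate 2 (0.145). VIRMA lost its call in HCC1937 without control replicate 1 (0.0503) or 2 (0.0619), and in HCC1937+BRCA1 without COH29 replicate 2 (0.0716) or control replicate 1 (0.082). The list medians were 0.02 and -0.05.

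ZC3H13, a further partner that anchors the complex in the nucleus, differed between the lines and not with the drug. It measured 9.60 and 9.55 in HCC1937 control, against 8.45 and 8.44 in HCC1937+BRCA1 control, and was higher by 1.13 ± 0.10 (adjusted p = 3.91e-05). Its changes with COH29 were -0.09 ± 0.10 and -0.05 ± 0.10 (adjusted p = 0.575 and 0.718). Among other m6A readers, IGF2BP3, an RNA-binding protein of fetal tissue and tumours that is held to stabilise marked transcripts, was lower in HCC1937. It measured 6.21 and 6.33 in HCC1937 control, against 10.19 and 10.17 in HCC1937+BRCA1 control, a difference of -3.91 ± 0.19 (adjusted p = 9.05e-07). The treated arrays had the same order, with 5.94 and 6.57 in HCC1937 and 10.17 and 9.83 in HCC1937+BRCA1. Its relative IGF2BP2 was higher in HCC1937, by 0.48 ± 0.08 (adjusted p = 0.00176), and so was IGF2BP1, by 0.49 ± 0.11 (adjusted p = 0.0079). IGF2BP1 was low throughout, at 6.58 and 6.46 in HCC1937 control, against 5.99 and 6.06 in HCC1937+BRCA1 control. These values, and those of IGF2BP3 in HCC1937, lay below the median over all probe sets of every array (7.10 to 7.24). The IGF2BP1 call was lost without HCC1937 control replicate 1 (0.0643) or HCC1937+BRCA1 control replicate 1 (0.0507), and with no moderation (0.0542). ZC3H13 and IGF2BP3, named for the line difference, were picked after their values were seen, as were IGF2BP1 and IGF2BP2. With COH29, 0 of 8 readers on this list were higher and 1 lower in HCC1937, against 0 higher and 2 lower in HCC1937+BRCA1 by limma, near the lower shares of 12.5% and 20.1% over all genes. By trend and robust moderation, for which the shares over all genes are not given here, the counts were 0 and 2 in HCC1937 and 1 and 2 in HCC1937+BRCA1. The RNA-binding protein gene ELAVL1 (HuR) fell by 0.28 and 0.48 (adjusted p = 0.0435 and 0.00251). PRRC2A fell by 0.42 in HCC1937+BRCA1 (adjusted p = 0.00343) and was at -0.25 in HCC1937 (adjusted p = 0.0533). Under 5 of 17 alternatives PRRC2A was called in HCC1937 too. The ELAVL1 call in HCC1937 ended under 10 of 17 alternatives. The reader medians were -0.14 and -0.09.

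The other N6 methyltransferases, counted with their cofactor TRMT112, were lower with the drug where they passed. Of 4 measured genes, 2 were lower and 0 higher in either line, with medians of -0.36 and -0.43, where 12.5% and 20.1% of all genes were lower. With trend and robust moderation 3 were lower in HCC1937 and 4 in HCC1937+BRCA1. The shares of 12.5% and 20.1% belong to the fit as reported, and those under that moderation are not given here. ZCCHC4, which methylates 28S ribosomal RNA, measured 7.93 and 8.12 in HCC1937 with COH29, against 8.63 and 8.48 in control, and fell by 0.53 on the log2 scale (adjusted p = 0.00582). HCC1937+BRCA1 cells gave 7.57 and 7.58 with COH29, against 8.89 and 8.73 in control, so that the level fell by 1.24 (adjusted p = 4e-05). Its effect in HCC1937 minus that in HCC1937+BRCA1 was 0.71 ± 0.14 (adjusted p = 0.0697). It passed without genes below the 30th percentile of level (0.0306) and with trend and robust moderation (0.0158). METTL5, the 18S ribosomal RNA enzyme, fell by 0.45 in HCC1937 (adjusted p = 0.027) and was at -0.32 in HCC1937+BRCA1 (adjusted p = 0.0738). PCIF1, which methylates the adenosine beside the messenger RNA cap, fell by 0.55 in HCC1937+BRCA1 (adjusted p = 0.00265) and was at -0.27 in HCC1937 (adjusted p = 0.0825). METTL5 lost its call without any 1 of the HCC1937 arrays (adjusted p 0.0737 to 0.151), and ZCCHC4 lost that in HCC1937 without control replicate 1 (0.0544).

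Among 7 further dioxygenases of the AlkB family, to which FTO and ALKBH5 belong, HCC1937 had 2 lower and 0 higher and HCC1937+BRCA1 had 3 lower and 0 higher, with medians of -0.12 and -0.23. Over all genes 12.5% and 20.1% were lower. ALKBH8, which modifies the wobble uridine of tRNA, measured 6.67 and 6.80 in HCC1937 with COH29, against 7.69 and 7.60 in control, a change of -0.91 ± 0.14 (adjusted p = 0.00161). The HCC1937+BRCA1 arrays read 6.51 and 6.57 with COH29, against 8.22 and 7.77 in control, a change of -1.46 ± 0.14 (adjusted p = 7.6e-05). The treated values of ALKBH8 lay below the median over all probe sets of every array (7.10 to 7.24), which can limit the measured size of the fall. ALKBH1, a demethylase of tRNA, fell by 0.33 and 0.81 (adjusted p = 0.0404 and 0.000271). ALKBH2, a DNA repair dioxygenase, fell by 0.54 in HCC1937+BRCA1 (adjusted p = 0.0145) and was at -0.12 in HCC1937 (adjusted p = 0.567). The ALKBH1 call in HCC1937 ended under 10 of 17 alternatives. ALKBH2 lost its call without HCC1937+BRCA1 COH29 replicate 1 (adjusted p = 0.0928), control replicate 1 (0.0631) or control replicate 2 (0.0502).

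In the rest of the METTL family, 4 of 22 measured genes were lower and 0 higher in HCC1937, against 12 lower and 1 higher in HCC1937+BRCA1, with medians of -0.11 and -0.40. The shares of all genes that were lower were 12.5% in HCC1937 and 20.1% in HCC1937+BRCA1. The genes carry a shared fold and act on proteins, tRNA and other substrates. METTL18, a histidine methyltransferase of a ribosomal protein, fell by 0.55 and 1.05 on the log2 scale (adjusted p = 0.00583 and 0.000113). METTL21A, which methylates HSP70 chaperones, fell by 0.44 and 0.88 (adjusted p = 0.00336 and 5.29e-05). TMT1A, a thiol methyltransferase, fell by 0.40 and 0.75 (adjusted p = 0.0173 and 0.000387). METTL2A, a tRNA cytidine methyltransferase, fell by 0.66 in HCC1937+BRCA1 (adjusted p = 0.000682) and was at -0.18 in HCC1937 (adjusted p = 0.213). Without HCC1937 COH29 replicate 1 or control replicate 2, 2 in place of 4 were lower in HCC1937. TMT1A lost its call there without COH29 replicate 1 (0.105) or control replicate 1 (0.103) or 2 (0.0678). Some members, such as METTL2A and METTL2B, are near-identical copies whose probe sets may share signal. Over all 67 measured genes of the 7 lists, 0 passed limma's test of the difference of effects, where 0.956% of all genes passed. In that test 14 had an unadjusted p under 0.05. The share of all genes at that looser threshold was not counted, so the 14 cannot be read as an excess. ZCCHC4 and METTL6 passed with trend and robust moderation (adjusted p = 0.0158 and 0.0199) and without genes below the 30th percentile of level (0.0306 and 0.0339).

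**Figure D4:**
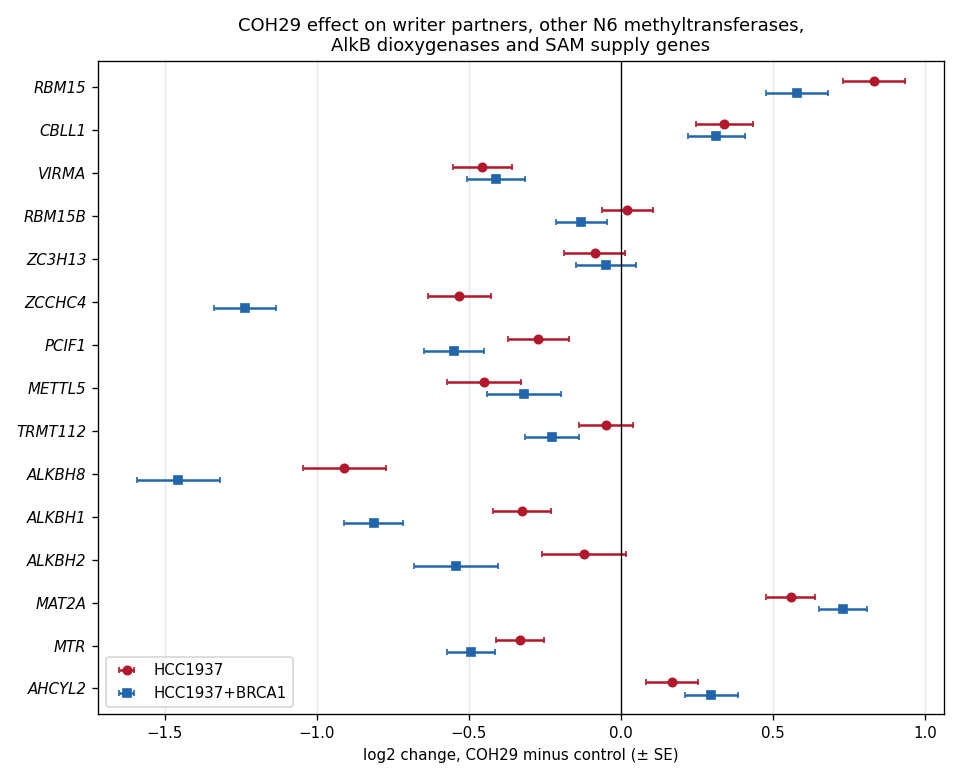
Log2 change with COH29 (horizontal axis, COH29 minus control) of the writer partners, the other N6 methyltransferases with the cofactor TRMT112, and the called AlkB and S-adenosylmethionine supply genes, in HCC1937 (red circles) and HCC1937+BRCA1 (blue squares); error bars are standard errors of the limma fit, with 2 arrays per group. RBM15 and MAT2A lie above 0 in both lines, and ZCCHC4 and ALKBH8 below 0, at -1.24 and -1.46 in HCC1937+BRCA1.

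MAT2A, the S-adenosylmethionine synthetase whose transcript METTL16 methylates, rose in both lines. It measured 13.60 and 13.54 in HCC1937 with COH29, against 12.99 and 13.03 in control, and rose by 0.56 ± 0.08 (adjusted p = 0.00125). In HCC1937+BRCA1 it measured 13.61 and 13.60 with COH29, against 12.91 and 12.84 in control, and rose by 0.73 ± 0.08 (adjusted p = 0.000171). MTR, the methionine synthase, fell by 0.33 and 0.49 (adjusted p = 0.0163 and 0.00142). In all, 1 of 9 genes of S-adenosylmethionine supply was higher and 1 lower in HCC1937, against 2 higher and 1 lower in HCC1937+BRCA1, with medians of 0.19 and 0.18. These counts lie near the shares over all genes (10.2% higher and 12.5% lower in HCC1937, 13.6% and 20.1% in HCC1937+BRCA1). AHCYL2 rose by 0.30 in HCC1937+BRCA1 (adjusted p = 0.0264), a call that ended without any 1 of that line's 4 arrays. In HCC1937 it was at 0.17 (adjusted p = 0.206). MTR lost its HCC1937 call without COH29 replicate 1 (0.077) or control replicate 1 (0.109) or 2 (0.0619). With each array shifted to one median, 5 in place of 2 rose in HCC1937+BRCA1. That scaling also moved the median change over all genes in HCC1937+BRCA1 from 0.04 to 0.11, so the added calls are not particular to this list.

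The CCR4-NOT complex, the deadenylase that YTHDF2 brings to marked transcripts, had genes called in both directions. There were 2 of 12 genes higher and 2 lower in HCC1937, against 2 higher and 5 lower in HCC1937+BRCA1, with medians of -0.14 and -0.25. Over all genes 10.2% were higher and 12.5% lower in HCC1937, and 13.6% and 20.1% in HCC1937+BRCA1. CNOT8, a catalytic deadenylase subunit, rose by 0.43 and 0.64 (adjusted p = 0.0114 and 0.000855), while CNOT7, its close paralog, fell by 0.52 in HCC1937+BRCA1 (adjusted p = 0.0025) and was at -0.21 in HCC1937 (adjusted p = 0.136). CNOT9 fell by 0.52 in HCC1937+BRCA1 (adjusted p = 0.002) and was at -0.17 in HCC1937 (adjusted p = 0.205). TNKS1BP1 rose by 0.31 and 0.46 (adjusted p = 0.0249 and 0.00226). With HCC1937 COH29 replicate 1 or control replicate 2 left out, 0 were higher and 0 lower in HCC1937. The CNOT8 call there was lost without either (0.0525 and 0.0839), and that of TNKS1BP1 without any 1 of the HCC1937 arrays (0.0587 to 0.141).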

How the data were processed

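The deposited values were log2 intensities of 33297 probe sets on 8 arrays. RMA and Partek are named, with no version, per the submitters' processing notes. RMA corrects background, makes arrays' distributions equal and summarises probes on the log2 scale, which can mask a global shift. The deposited arrays were not fully equal, with medians over all probe sets from 7.10 to 7.24. Sorted within each array, their values differed by up to 0.297. The platform annotation gave 1 gene for 19460 probe sets, several for 1754 and none for 12083, and only the first were used. Of these, 19429 matched RefSeq (GRCh38.p14) by gene ID. No build for the array values is given in the sources used here, so coordinates are those of the RefSeq promoters only.

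A group-means model over all 8 arrays was fitted to 18417 genes with limma 3.58.1 in R 4.3.3 (4 residual degrees of freedom), since 2 arrays per group leave few alone. From it came the drug effect in either line, the line difference without drug (HCC1937 minus HCC1937+BRCA1), and the drug effect in HCC1937 minus that in HCC1937+BRCA1. The threshold was an adjusted p of 0.05 (Benjamini-Hochberg, all genes), and intervals are unadjusted. Python 3.11.15 with pandas 2.3.3 made the tables and matplotlib 3.10.9 the plots. The model code was first tested on simulated data.

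The members and lists were chosen with earlier results of these data known. Named were the members, BRCA1, up to 4 called genes per list with the smallest p with COH29, 5 genes most like METTL4 and 3 neighbours on each side. YTHDF2 and the listed genes N6AMT1, YTHDC2, HNRNPC, RBMX and CSKMT were not analysed here, and EEF1AKNMT is another name of METTL13. Alternatives were a filter at the 30th percentile of level, scaling by array medians or cyclic loess, variance moderation with trend and robust or none, a replicate block, the mean over probe sets, a fit on the 4 arrays of a contrast, and 1 array left out in turn. A crossed replicate block was added after seeing the data.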

Additional observations from a re-analysis of the deposited data

How the results depend on the processing

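For the drug effects and the line comparison without drug, no setting other than the left-out arrays moved the counts of calls by over 1.5 times. Leaving out 1 array gave 2336 to 4012 calls in place of 4179 for COH29 in HCC1937, with 1 to 3 of the members other than METTL4 called, and 0 to 2 members called between the lines in place of 2. In the line comparison 0 were called without either HCC1937 control array and 1 without either HCC1937+BRCA1 control array. The 176 calls for the difference of effects became 41 to 67 without 1 array, which leaves 3 residual degrees of freedom. They became 351 without genes below the 30th percentile, 566 with trend and robust, 3 without moderation and 106 with the replicate block. Of the members 1, METTL3, was called there with trend and robust. Shifting arrays to one median made 52.1% of HCC1937 calls and 54.4% of HCC1937+BRCA1 calls higher, against 44.8% and 40.3% in the fit as reported. Member changes that turned sign were all uncalled. With cyclic loess the difference of effects for FTO was -0.0040. Without 1 array, YTHDF3 ran from -0.0422 to 0.0811 in HCC1937, METTL16 from -0.0345 to 0.19 in HCC1937+BRCA1, ALKBH5 from -0.0295 to 0.0651 and METTL14 from -0.0465 to 0.14 between the lines, and the difference of effects from -0.15 to 0.15 for METTL14 and from -0.11 to 0.0121 for YTHDF3. The cause was not tested.

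Replicate numbers showed no clear pairing of the samples, though 2 arrays per group cannot exclude one. Deviations of same-numbered arrays correlated over genes with r = 0.037 between the HCC1937 groups, 0.26 between the HCC1937+BRCA1 groups and -0.10 between the control groups. The value was -0.086 between the COH29 groups. It was -0.20 between HCC1937 with COH29 and HCC1937+BRCA1 control, and -0.19 between HCC1937 control and HCC1937+BRCA1 with COH29. The replicate block changed no other count of calls by over 1.5 times. With numbers crossed between the lines there were 6182 calls in the line comparison, against 5749.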
